A study of Mus musculus with 18 samples.

Results

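This account follows 105 probe sets of 103 genes whose transcripts were low in both gradient fractions of 17-day mouse testes and had reached the RNP fraction, more than the polysome fraction, by 22 days. They were chosen from the measured values by 3 limits on linear group means of 3 arrays. A probe set had to lie below 50 in both fractions at 17 days, at 100 or more in RNPs at 22 days, and there at 2 or more times the polysome mean. Of the 20380 probe sets with 1 gene symbol, among 22690 on the array, 120 met these limits, and 15 probe sets of 11 well-known late spermatid genes (Prm1, Prm2, Prm3, Tnp1, Tnp2, Hils1, Odf1, Akap4, Smcp, Spata19 and Capza3) were left out by name. Because the 17-day and 22-day values made the choice, they are described below without a test. The adult arrays took no part in it, and the adult difference between the fractions is the only comparison tested.

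The study asked which messenger RNAs change their split between the fractions as the testis matures. Whole testes of CD1 mice, an outbred strain, were collected at 3 stages: 17 days, 22 days and adult (age in days not stated), and the labels name no treatment or mutation for any group. Cytoplasmic extracts were spun through a sucrose gradient of 10 to 30% cut into 17 fractions. RNA from fractions 2 to 8 is the RNP sample and RNA from fractions 11 to 17 the polysome sample. Each of the 6 combinations of age and fraction has 3 arrays numbered as biological replicates, and the number of animals per replicate is not stated.

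Particles of RNA and protein (RNPs) stay near the top of such a gradient, while messenger RNAs loaded with ribosomes (polysomes) travel far into it. Spermatids, the haploid cells that become sperm, stop transcribing as their chromatin is condensed, before they are mature. Many of their messenger RNAs are therefore made early, held without ribosomes in RNPs bound by proteins such as Ybx2, and translated later. The first round of spermatogenesis runs almost in step across the young testis: meiotic spermatocytes dominate before round spermatids appear, and elongated spermatids come last. CREM, a transcription factor of round spermatids that acts with the LIM-domain coactivator Fhl5 (ACT), drives many spermatid genes through the cyclic AMP response element.

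All arrays had been scaled to the same trimmed mean (150.04 to 150.07), so a value is relative to the other transcripts of its fraction and is no amount of RNA. In whole tissue, fewer cells of a type and less RNA per cell cannot be told apart. Late spermatid markers went with the labelled ages: the summed level of their list (43 genes on the array) was 10299 to 13815 on 17-day polysomes and 87027 to 94940 on adult polysomes. The list holds 4 of the genes followed here and others left out by name, which the rule asked to be low at 17 days. This rise is therefore only in part an independent check of the labels. Fractions within an age shared deviations by replicate number, which was therefore taken to pair them. The 22-day arrays of replicate 2 stood apart for these genes, as given next, and no library was left out of the main values.

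At 17 days the 105 probe sets were low, as the rule asked. Their medians were 9.6 to 17.5 per array, against 49.2 to 59.5 over the whole array, and single values reached 85. Their summed level was 1557 to 2344 on the 6 arrays, or 0.0363 to 0.0502% of the summed signal of an array. At 22 days their sums were 44982, 15494 and 35024 in RNPs and 11536, 5015 and 8731 on polysomes for replicates 1, 2 and 3. In adults the sums were 100996, 137488 and 145643 in RNPs, up to 2.98% of the array, and 66004, 70731 and 69482 on polysomes. Both fractions thus held more of this signal at each later age, and at 22 days the order of the replicates was the same in both.

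**Figure D1:**
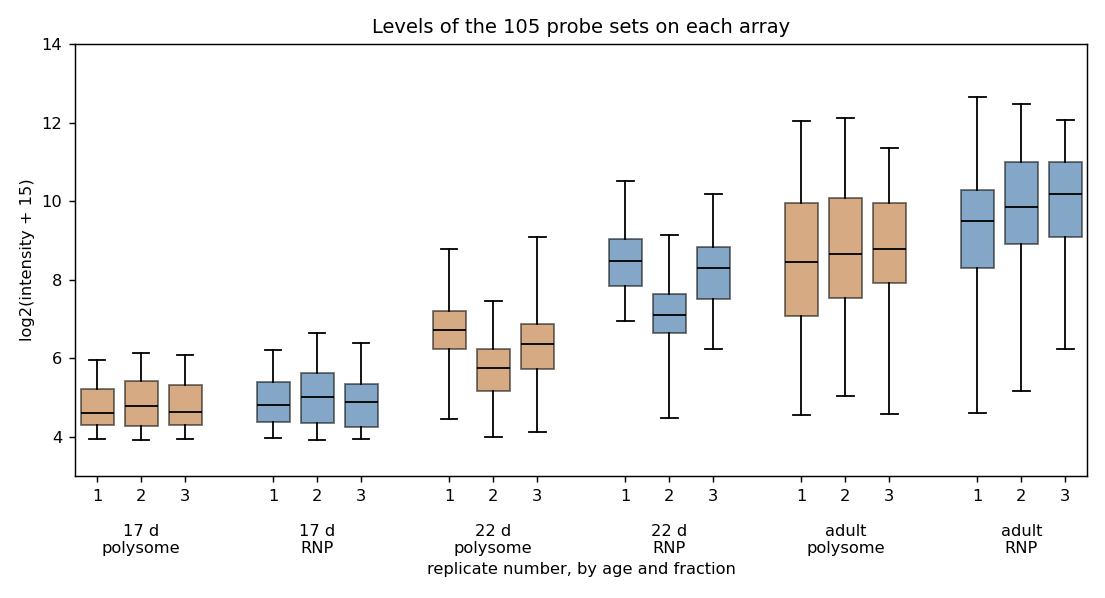
Levels of the 105 probe sets as log2(intensity + 15) on each of the 18 arrays, by age and fraction (brown, polysomes; blue, RNPs). Boxes span the quartiles with the median as a line, and whiskers reach the lowest and highest probe set. The array medians are 9.6 to 17.5 in intensity at 17 days, and the replicate 2 arrays of 22 days (123.5 in RNPs, 39.2 on polysomes) are the lowest of their groups.

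The 22-day replicates differed widely. Replicate 2 had the lowest value for 99 of the 105 probe sets in RNPs and for 88 on polysomes, and replicate 1 the highest for 91 and 92. Within each pair of arrays the median ratio of RNP to polysome was 3.76, 2.91 and 4.41. The rule asks for such an excess in the means of these same arrays, so nothing is read from it. On replicate 2 alone 71 of the 105 reached 100 in RNPs, against 105 on replicate 1 and 100 on replicate 3. Without the RNP array of replicate 2, 132 probe sets would meet the rule, and without that of replicate 1, 85.

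The highest 22-day RNP mean belonged to Gtsf1l, a gametocyte-specific relative of a piRNA-pathway factor. Its RNP arrays read 1450.4, 549 and 1155 and its polysome arrays 399.6, 161 and 243 (means 1051 ± 459.7 and 268 ± 121, SD, n = 3). Dpysl3, a collapsin response mediator that binds tubulin, followed with 1416, 452 and 1079.5 in RNPs and 428, 112 and 529 on polysomes. For Gtsf1l the 2 sets of arrays did not overlap, and for Dpysl3 they did, because RNP replicate 2 lay below the polysome arrays of replicate 3. Spz1, a bHLH-zipper transcription factor of the testis, read 1366, 382 and 830.4 in RNPs against 161, 47.7 and 106 on polysomes, a ratio of means of 8.20. Nt5c1b, a cytosolic nucleotidase, stood at 995, 415 and 836 against 138, 70.4 and 77.6. Cypt1, a protein of the perinuclear theca around the sperm nucleus, stood at 912, 249.7 and 629 against 148, 32.6 and 50.9. These 3 genes had 22-day ratios from 7.73 to 8.20, above the median of 3.73 over the 105, and none of their RNP arrays overlapped a polysome array.

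Rnf151, a RING-finger protein of the acrosome region, read 1064, 259 and 817 in RNPs and 177, 91.3 and 142 on polysomes at 22 days. Klhl10, a Cullin-3 adaptor needed for spermatid maturation, read 1019.8, 360.3 and 694 against 352, 133 and 320. Spag4, a SUN-domain protein of the sperm tail and nuclear envelope, read 837, 292 and 576 against 242, 103 and 115. In all 3 the fractions were separate at 22 days. The actin-related protein Actl7a of the subacrosomal region (936, 253 and 799 against 246, 135 and 283) overlapped through RNP replicate 2, and the uncharacterised 1700067P10Rik had means of 585 and 215. Over the 105 the ratio ran from 2.06 (Pacsin1) to 31.0 (Cdrt4, whose polysome arrays read 6.80, 3.30 and 2.40 against 210.4, 9.50 and 168 in RNPs). The ratio of Cdrt4 is thus taken against a polysome level near 0, and its RNP replicate 2 was low too.

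**Figure D2:**
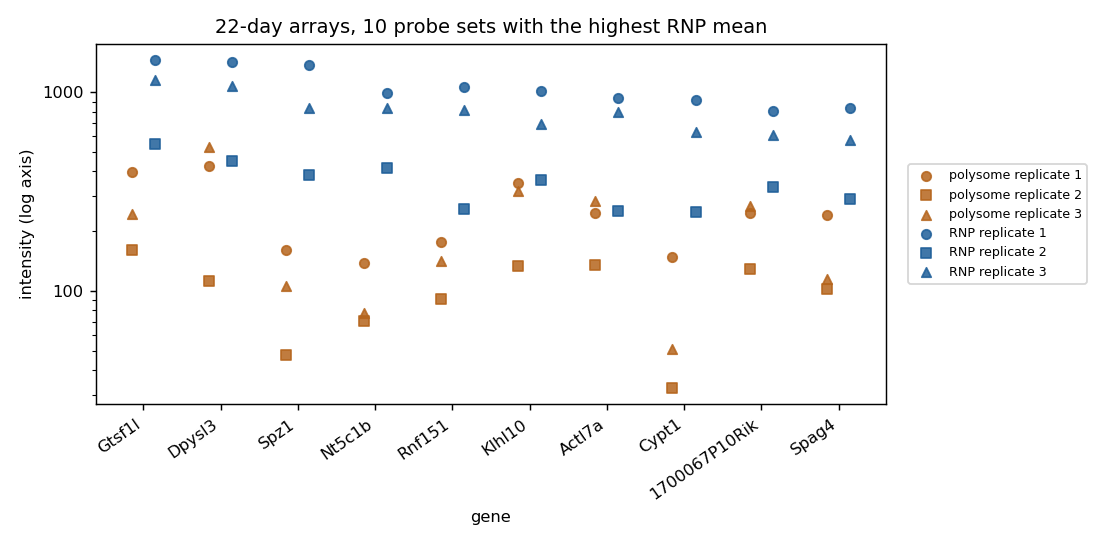
Intensity on a log axis of the 10 probe sets with the highest 22-day RNP mean, on each 22-day array (brown, polysomes; blue, RNPs; circles, squares and triangles are replicates 1, 2 and 3). Squares, replicate 2, are the lowest RNP points of all 10 genes, from 249.7 for Cypt1 to 549 for Gtsf1l.

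The limits cut through a continuous range. Just inside the 17-day limit lay Pdzk1ip1 (49.8), Pmfbp1 (49.4) and Pln (49.1), and just outside it Isg20 (50.1), Pgap4 (50.1) and Tescl (50.5). Ccdc93 (101), Cabyr (104) and Nkx2-4 (105) only just reached the 22-day RNP minimum, which Oxct2a (99.2), Rab3c (98.1) and Usp20 (97.1) missed. For the ratio, Pacsin1 (2.06), Dpf3 (2.07) and Slc6a6 (2.12) were inside and Cgnl1 (1.98), St8sia3 (1.97) and Pde4a (1.97) outside. A further 37 probe sets of 35 genes were first seen at 22 days in the same way but with less than a 2-fold excess in RNPs.

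A probe set is not a gene. Of the 103 genes, 32 had 45 further probe sets with their symbol, and none of the 45 met the rule: 16 were already at 50 or more at 17 days, 25 were below 100 in 22-day RNPs and 4 had a ratio under 2. For 13 genes another probe set was already present at 17 days, among them Fhl4, whose other probe set stood at 1982 in 17-day RNPs against 46.0 for the one followed here. For Cabyr, a calcium-binding protein of the fibrous sheath, the 104 in 22-day RNPs came from 1 probe set, while another probe set of the gene already stood at 694 there and at 428 on polysomes. "First seen" therefore holds for the sequence under the probe set. In adults 28 of the 45 could be tested, with 8 higher in RNPs and 1, of Clip4, higher on polysomes (limma, adjusted p under 0.05).

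The upstream sequences of these genes were looked up because the genes appear together. RefSeq promoter windows (GRCm38.p6, 250 bases before to 50 after a start) were found for 78 of the 103 genes, 117 windows in all, of which those of 1 gene can overlap. The full cyclic AMP response element TGACGTCA occurred in 4 windows of 3 genes, 3.42% against 1.79% of all 32851 windows. By gene there was little difference: 3 of 78 (3.85%) against 257 of 7015 other genes tested on the array (3.66%). The shorter TGACG, which the full element contains, occurred in 18.8% of the member windows against 20.8% of all. The word TGATGTCA, which differs from the full element by 1 letter and reads TGACATCA on the other strand, occurred in 18 windows (15.4%) against 3.62%. By gene, 17 of 78 (21.8%) had it, against 150 of 7015 other genes tested on the array (2.14%) and 4.18% of all 27025 genes with windows. The members had 1.5 windows per gene and the other tested genes 1.29. In 13 of the 17 the word lay wholly within the 100 bases before the start.

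That word was picked after these sequences had been seen, so its share is a description with no test. All 12 words that differ from the element by 1 letter were counted the same way. The other 11 were in 0 to 5.98% of the member windows, the highest being TGAGGTCA, and in 0.244 to 2.17% of all windows. Of the genes with an adult call in RNPs (below) 11 of 36 had TGATGTCA, and of those without a call 6 of 42; this difference was not tested. It was in 3 of 9 of the genes left out by name and in 1 of 25 of the genes first seen in both fractions. A match is not a binding site. The 100 bases before the start follow 5′ to 3′ on the gene's strand for 10 genes that hold TGATGTCA or the full element there, with these words and any TGACG, on either strand, in capitals.
Txndc8, chr4:58009127-58009226, minus strand: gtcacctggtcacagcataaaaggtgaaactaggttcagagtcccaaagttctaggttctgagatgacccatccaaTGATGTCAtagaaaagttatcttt
Galntl5, chr5:25181380-25181479, plus strand: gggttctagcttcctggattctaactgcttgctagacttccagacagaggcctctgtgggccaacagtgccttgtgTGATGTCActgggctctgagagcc
Cdrt4, chr11:62951093-62951192, plus strand: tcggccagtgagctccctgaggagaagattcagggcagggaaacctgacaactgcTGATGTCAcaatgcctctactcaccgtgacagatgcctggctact
Nt5c1b, chr12:10369871-10369970, plus strand: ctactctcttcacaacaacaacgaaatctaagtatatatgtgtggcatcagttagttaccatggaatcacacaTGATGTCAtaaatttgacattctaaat
Pln, chr10:53337586-53337685, plus strand: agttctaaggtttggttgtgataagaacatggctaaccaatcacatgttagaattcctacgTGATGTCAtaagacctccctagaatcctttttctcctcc
Actl7a, chr4:56743322-56743421, plus strand: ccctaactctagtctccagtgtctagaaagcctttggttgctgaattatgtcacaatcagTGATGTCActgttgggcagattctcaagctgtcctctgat
1700067P10Rik, chr17:48089542-48089641, plus strand: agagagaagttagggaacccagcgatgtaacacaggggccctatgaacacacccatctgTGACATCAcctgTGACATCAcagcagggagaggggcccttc
Hmgb4, chr4:128260896-128260995, minus strand: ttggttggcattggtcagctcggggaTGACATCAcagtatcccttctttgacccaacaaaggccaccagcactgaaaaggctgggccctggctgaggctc
Spag4, chr2:156065113-156065212, plus strand: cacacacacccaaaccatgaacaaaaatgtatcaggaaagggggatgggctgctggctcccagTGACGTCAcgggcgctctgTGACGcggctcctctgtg
Znrf4, chr17:56512484-56512583, minus strand: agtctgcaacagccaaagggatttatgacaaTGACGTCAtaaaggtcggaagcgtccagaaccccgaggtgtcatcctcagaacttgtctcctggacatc

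In the first 8 of these the first base of the word lies 24 (Txndc8 and Galntl5) to 74 (Hmgb4) bases before the start, and 1700067P10Rik has it 2 times, at 41 and 29. Spag4 and Znrf4 hold the full element at 37 and 69 bases. Of the other words searched on both strands, TATAAA was in 4.27% of the member windows against 13.6% of all, and in 0 of 117 between 21 and 40 bases before the start on the gene's strand, against 1.99%. GTTGCC, which stands in RFX binding sites, was in 18.8% against 12.5%, CCAAT in 41.0% against 37.4% and CAGTTG, a MYB core, in 13.7% of both. The median GC content was 52.0% for these windows and 52.7% for all, and the ratio of observed to expected CpG was 0.22 against 0.38.

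In adult testes most of these probe sets still had a higher scaled level in RNPs than on polysomes, though 55 of the 105 had no call. These levels do not give the share of a transcript's copies in either fraction. Of the 105 probe sets 50 had a higher level in RNPs than on polysomes at a limma adjusted p under 0.05 (n = 3 arrays a fraction), and 0 had a lower one. Among all 14066 tested, 1772 (12.6%) had the higher level in RNPs and 3642 (25.9%) the higher level on polysomes. With each array centred on the same median that split was 2989 and 2647, and for the 105 it was 61 and 0. The median log2 difference, RNP minus polysome on log2(intensity + 15), was 1.04 over the 105 (quartiles 0.67 and 1.43) and -0.17 over all tested. It was positive for 99 of the 105 and for 5891 of the 14066. At an unadjusted p under 0.05 the counts were 60 and 0 of the 105, against 2304 and 4369 of the 14066. All 3 RNP arrays lay above all 3 polysome arrays for 56 of the 105, against 13.6% of all tested. Of the 7767 tested with an adult mean of at least 100, 1477 were higher in RNPs and 1921 on polysomes (limma adjusted p under 0.05). The counts by role below can be read beside these. On the 6 adult arrays alone 103 of the 105 pass the intensity filter.

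The model with the replicate pair as a block called 79 of the 105 in RNPs and 0 on polysomes (2668 and 4830 of all 14066 tested), with 29 added to the same 50. Without RNP replicate 3 the count was 36 and without RNP replicate 1 it was 55. Within the 3 pairs of adult arrays the median log2 difference was 0.86, 1.11 and 1.17. Over the probe sets left out by name it was 0.36 with 1 of 15 higher in RNPs, and over those first seen in both fractions 0.36 with 11 of 37 higher in RNPs and 2 on polysomes; these differences between sets were not tested. Markers of other cell types lay the other way. The 20 Sertoli cell genes tested had 14 higher on polysomes and 1 in RNPs, and their summed level was 7017 to 10618 on adult polysomes and 1136 to 2747 in adult RNPs. All 7 Leydig cell genes tested were higher on polysomes (4299.5 to 7603 against 515 to 998 over 8 genes), as were 7 of 11 peritubular genes. The part of these cells in the result was not tested.

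**Figure D3:**
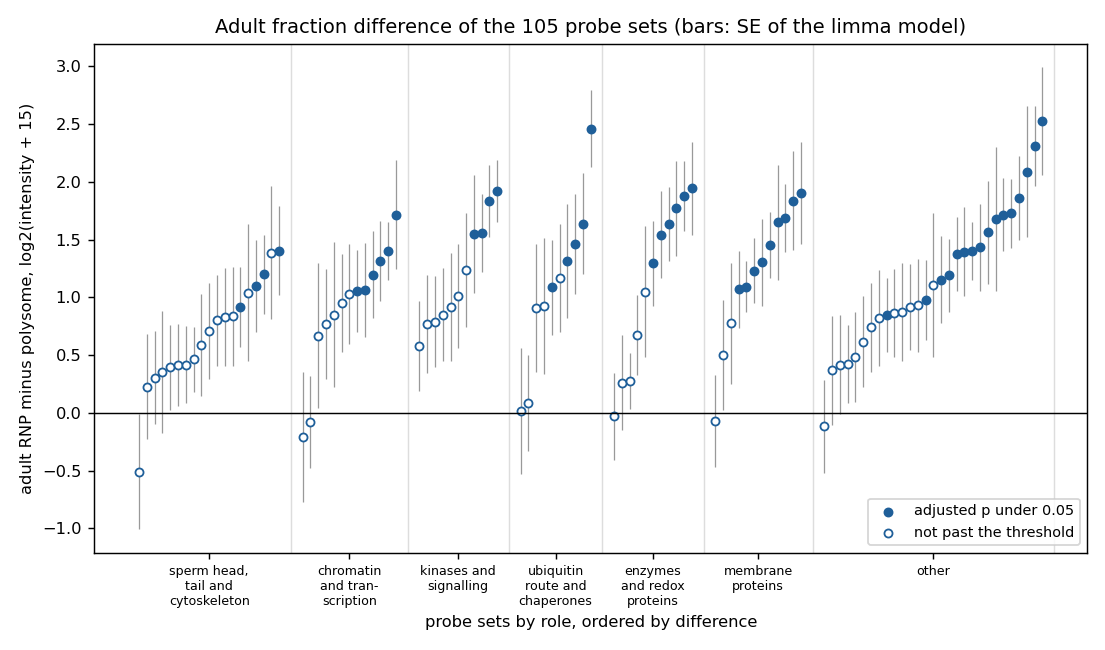
Adult RNP minus polysome difference on log2(intensity + 15) for each of the 105 probe sets, grouped by role and ordered within it. Bars are the standard errors of the limma model, filled points have an adjusted p under 0.05 and open points do not. The values run from -0.51 to 2.53, and none of the 6 below 0 is filled.

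Proteins of the sperm head, tail and cytoskeleton made up 19 of the probe sets, with a median adult difference of 0.71 and 4 higher in RNPs (10 with the block). Spag4 was 2.29-fold higher in RNPs, with adult arrays at 1881, 1335 and 1797 against 1002, 594 and 605 on polysomes (log2 1.20 ± 0.34 SE, limma adjusted p = 0.0103). A probe set of Clip4, a protein with a CAP-Gly domain that binds microtubules, was 2.65-fold higher (376, 677 and 1040 against 191, 297 and 224; limma adjusted p = 0.0082, and 0.0536 without RNP replicate 3). Its RNP and polysome arrays did not overlap. Of the other Clip4 probe sets, 1 was called the opposite way (means 39.4 in RNPs and 111 on polysomes, log2 -1.21, limma adjusted p = 0.0030) and another the same way (978 and 407, log2 1.21, limma adjusted p = 0.0041). Theg, a testis protein of haploid cells, and Armc12, of the sperm mitochondrial sheath, were 1.89-fold and 2.15-fold higher. Both calls were lost without polysome replicate 2 or 3 and without RNP replicate 1 or 3, with limma adjusted p up to 0.219 and 0.173.

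For Odf3, an outer dense fibre component of the tail, the adult fractions did not overlap either (1628, 1800.2 and 1658 against 787, 521 and 633, log2 1.39 ± 0.58 SE). It missed the threshold in the model without pairs (limma adjusted p = 0.0647, 0.0003 with the block). Actl7a read 2461, 2171 and 2827 in RNPs against 2344, 973 and 1494 on polysomes (log2 0.71 ± 0.41 SE, limma adjusted p = 0.185, 0.0294 with the block). Cabyr, at 172, 367 and 492 against 110, 171 and 259, likewise missed the threshold without the pairs and passed it with the block (limma adjusted p = 0.132 and 0.005). The other probe sets of Cabyr had far higher levels and the opposite sign, with means of 952 and 1043 in RNPs against 1586 and 1518 on polysomes (log2 -0.78 and -0.70; limma adjusted p = 0.109 and 0.242, and 0.0027 and 0.010 with the block). The adult direction of this gene thus differed between its probe sets. Cypt1 and Dpysl3, both among the highest at 22 days, had differences of 0.59 and 0.23 with overlapping arrays and no call in either model. Other probe sets of Dpysl3 had the opposite sign without a call (log2 -0.61 and -0.29, limma adjusted p = 0.214 and 0.272).

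Tuba8, an alpha tubulin, had the lowest adult difference of all 105. Its adult polysome arrays read 1855, 1240.1 and 1466 and its RNP arrays 1153, 780.2 and 1283, so that polysomes were higher in all 3 pairs but the groups overlapped (log2 -0.51 ± 0.50 SE, limma adjusted p = 0.442, 0.092 with the block). At 22 days its means had been 209.6 in RNPs and 58.3 on polysomes. Cby2, a chibby family protein of spermatids, had adult means of 2244 in RNPs and 1787 on polysomes, 9.60 and 43.5 times its 22-day means.

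Chromatin and transcription proteins gave 13 probe sets, 6 of them higher in RNPs (10 with the block), with a median of 1.03. Dpf3, a PHD-finger subunit of BAF chromatin remodelling complexes, was 2.64-fold higher (323, 325 and 329 in RNPs against 149, 67.6 and 144; log2 1.40 ± 0.25 SE, limma adjusted p = 0.000297). Another Dpf3 probe set had the opposite sign at low levels and no call (means 32.4 and 64.5, log2 -0.73, limma adjusted p = 0.102). Zfp474, a zinc finger protein, was 2.49-fold higher (limma adjusted p = 0.006). The homeobox probe set Nkx2-4 was 3.28-fold higher at low levels (350.1, 131 and 101 against 65.1, 35.6 and 28.2; limma adjusted p = 0.0082, and 0.055 without RNP replicate 1). Another Nkx2-4 probe set had means of 38.0 and 37.4 (log2 -0.10, limma adjusted p = 0.862). Mbd3l1, a methyl-CpG-binding protein relative, Foxj1, the forkhead factor of ciliated cells, and Fhl4, a LIM-domain protein, were 2.29-fold, 2.09-fold and 2.08-fold higher. The call of Mbd3l1 was lost without polysome replicate 1 or RNP replicate 2 or 3 (limma adjusted p up to 0.105). That of Foxj1 was lost without polysome replicate 1 or 2 or RNP replicate 1 or 3 (up to 0.246), and that of Fhl4 without polysome replicate 1 or RNP replicate 2 (up to 0.162).

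The spermatid regulators of this group were abundant in both adult fractions. Fhl5, the coactivator of CREM, read 1656, 3766 and 2321 in RNPs and 907, 2336 and 1366 on polysomes. Hmgb4, a high-mobility-group protein of spermatids, read 2117, 3895 and 2952 against 1102, 2515 and 1475. Spz1 read 1773, 4001 and 3526 against 1028, 1855 and 1782. Replicate 1 was the lowest and the RNP array the higher of each pair in all 3 genes, while the groups overlapped. Their log2 differences of 0.77 ± 0.48, 0.85 ± 0.63 and 0.95 ± 0.43 SE missed the threshold without the pairs (limma adjusted p = 0.211, 0.296 and 0.0838) and passed it with them (0.0043, 0.0034 and 0.0004). Zfp37, a zinc finger protein of the testis, behaved likewise (log2 1.03, limma adjusted p = 0.0695 and 0.0011).

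The histone H2A variants of spermatids had adult differences near 0. H2al2a had adult RNP arrays at 887, 1122 and 1457 and polysome arrays at 1054, 1354 and 1581, polysomes being higher in each pair. H2ap read 890.3, 1234 and 1216 against 1464, 1099 and 975. Their differences were -0.21 ± 0.56 and -0.08 ± 0.40 SE on the log2 scale, with no call in either model (limma adjusted p = 0.795 and 0.896, block 0.460 and 0.844), and became 0.06 and 0.19 with median centring. Both had 22-day RNP means under 160, with polysome means of 27.97 and 34.7. H2al2a belongs to a family of near-identical copies that a probe set may not separate.

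Kinases and signalling proteins gave 11 probe sets, with 4 higher in RNPs (10 with the block) and a median of 1.01. Tssk2, a testis-specific serine kinase of elongating spermatids, was 2.95-fold higher in adult RNPs (2641, 2681 and 2725 against 1092, 925 and 720.2; log2 1.56 ± 0.34 SE, limma adjusted p = 0.0015). Its RNP arrays lay close together and far above the polysome arrays. Tssk6, the kinase needed for histone replacement in the sperm head, read 6433, 4057 and 3338 against 2411, 1624 and 1684 (log2 1.23 ± 0.49 SE, limma adjusted p = 0.0559, 0.0007 with the block). Tssk3 read 2613, 2487 and 2009.8 against 1997, 1522 and 1278 (log2 0.58, limma adjusted p = 0.247, 0.054 with the block). The 3 kinases of 1 family thus had positive values, and Tssk2 was called in the unpaired model while Tssk6 lay near its threshold; differences between them were not tested.

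Smad6, an inhibitor of BMP signalling, was 3.79-fold higher in RNPs (848, 702 and 527 against 214, 158 and 141; log2 1.92 ± 0.27 SE, limma adjusted p = 3.9e-05). Artn, a GDNF-family ligand, was 3.56-fold higher at low levels, with means of 178 and 40.6. The call of Pkib, an inhibitor of protein kinase A (2.93-fold), was lost without polysome replicate 1 or without RNP replicate 2 or 3, with limma adjusted p up to 0.079. Akap1, which anchors protein kinase A at mitochondria, had means of 2565 and 1413 and was called with the block but not without it (limma adjusted p = 0.104 and 0.0099). Plcz1, the sperm phospholipase that starts calcium waves in the egg, read 340.3, 1448 and 469 against 222, 506 and 398 (limma adjusted p = 0.161, 0.0197 with the block).

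Ubiquitin-route proteins and chaperones gave 10 probe sets, 5 higher in RNPs (8 with the block), with a median of 1.13. Fem1a, a substrate receptor of Cullin-2 ligases, had the second highest difference of the 105: 518, 465 and 389.6 in RNPs against 108, 45.2 and 68.2 on polysomes (5.51-fold, log2 2.46 ± 0.33 SE, limma adjusted p = 2.6e-05). Another Fem1a probe set, already at 133 in 17-day RNPs, had no adult call. Its adult means were 189 in RNPs and 143 on polysomes (log2 0.36, limma adjusted p = 0.197, 0.076 with the block). Dnajc5b, a cysteine-string protein of the testis, was 3.11-fold higher (1175, 3112 and 2699 against 333, 1027 and 908; limma adjusted p = 0.0066). For the Fem1a and Dnajc5b probe sets followed here, no RNP array overlapped a polysome array. Znrf4, a RING-type ligase, was 2.75-fold higher (limma adjusted p = 0.0126), a call lost without polysome replicate 1 or RNP replicate 3 (up to 0.0558). Rnf151 was 2.13-fold higher (3344, 2916 and 2693 against 1824, 1154 and 1272; limma adjusted p = 0.0435), a call lost without any 1 of the 6 arrays other than polysome replicate 1, up to 0.129.

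Klhl10 and Hspa1l had adult differences near 0. Klhl10 read 989, 2388 and 2656 in RNPs and 1297, 2020 and 2018 on polysomes (log2 0.08 ± 0.41 SE). Hspa1l, the HSP70 chaperone of spermatids, read 1015, 1278 and 1396 against 1191, 1370 and 1069.6 (log2 0.02 ± 0.55 SE). Neither was called in either model, and the standard errors leave room for differences of either sign. Otub2, a deubiquitinase, had RNP arrays at 3184, 3969.9 and 3092, all above its polysome arrays at 1600.2, 1487 and 1414, and was called with the block but not without it (limma adjusted p = 0.055 and 0.0005).

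Enzymes and redox proteins gave 11 probe sets, 6 of them higher in RNPs (8 with the block), with a median of 1.29. Txndc8, a thioredoxin of spermatids, was 3.85-fold higher (1069.5, 2874 and 1595 against 362, 598 and 368; log2 1.94 ± 0.40 SE, limma adjusted p = 0.0011). Gpx6, a glutathione peroxidase, was 3.68-fold higher (limma adjusted p = 0.00014) and Galntl5, a glycosyltransferase relative of sperm, 3.41-fold (limma adjusted p = 0.0024). Ftmt, the mitochondrial ferritin, was 3.10-fold higher and Abhd2, a serine hydrolase of sperm, 2.92-fold. Nt5c1b was 2.45-fold higher (1573, 2823 and 2854 against 702, 1067 and 1116; limma adjusted p = 0.0102). Of these 6, none had RNP arrays that overlapped the polysome arrays.

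Among the enzymes without a call, St6galnac2, a sialyltransferase, read 1412, 2243 and 3132 in adult RNPs and 1622, 2502 and 2612 on polysomes (log2 -0.03 ± 0.38 SE, limma adjusted p = 0.955), although its 22-day ratio of 6.69 was among the higher ones. Aldoart2, an aldolase of the sperm tail, had means of 1044 and 611 and passed only with the block (limma adjusted p = 0.134 and 0.0092). Selenov, a testis selenoprotein, likewise passed only with the block (0.152 and 0.0088).

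Membrane proteins, channels and transporters gave 12 probe sets, of which 9 were higher in RNPs, with or without the block, and the median was 1.27. Aqp7, the aquaglyceroporin of spermatids, was 3.73-fold higher (1014, 1082 and 1754 against 412, 304 and 266; log2 1.90 ± 0.44 SE, limma adjusted p = 0.0025). Kcne3, a potassium channel subunit, was 3.57-fold higher (269.9, 649.7 and 818 against 62, 161 and 241; limma adjusted p = 0.0026). Pln, the phospholamban that restrains a calcium pump, was 3.22-fold higher at means of 431 and 116. The adult arrays of Aqp7, Kcne3 and Pln, on the probe sets followed here, did not overlap. Other Pln probe sets were too low to be tested, with adult means of 28.2 and 29.9 in RNPs against 24.2 and 33.2 on polysomes. Catsper1, the pore subunit of the sperm calcium channel, was 2.10-fold higher (409.9, 611 and 1061 against 289, 309 and 299; limma adjusted p = 0.0161, and 0.101 without RNP replicate 3). Tmco5 was 3.14-fold higher, with a call lost without polysome replicate 1 or RNP replicate 2 or 3 (limma adjusted p up to 0.0811). Adam21, a sperm membrane disintegrin, had means of 215 in RNPs and 236 on polysomes (log2 -0.07 ± 0.40 SE).

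The other 29 probe sets had a median of 1.11 and 16 higher in RNPs (24 with the block). 1700093K21Rik, an uncharacterised gene, had the highest difference of all 105, with 524, 1579 and 1132 in RNPs against 62.5, 230 and 255 on polysomes (5.77-fold, log2 2.53 ± 0.47 SE, limma adjusted p = 0.0004). Ccdc93, a subunit of an endosomal recycling complex, was 4.97-fold higher (155, 371 and 243 against 28.9, 39.2 and 42.9; log2 2.31 ± 0.35 SE, limma adjusted p = 7.1e-05). Another Ccdc93 probe set had no such difference, with adult means of 42.9 in RNPs and 46.2 on polysomes (log2 -0.13, limma adjusted p = 0.742). Cdrt4, a gene with no function assigned here, was 4.25-fold higher (885, 1792 and 1689 against 160.4, 390.1 and 493; limma adjusted p = 0.0075). 4933411G06Rik, also uncharacterised, was 3.62-fold higher (limma adjusted p = 0.0007). For all 4 probe sets followed here the lowest RNP array was above the highest polysome array. Gtsf1l, the highest at 22 days, read 1779.7, 2803 and 3235 against 1150, 1994 and 1930 in adults and passed only with the block (limma adjusted p = 0.229 and 0.0105). The uncharacterised 1700019N19Rik was at 1382 and 1446 (log2 -0.12 ± 0.41 SE).

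**Figure D4:**
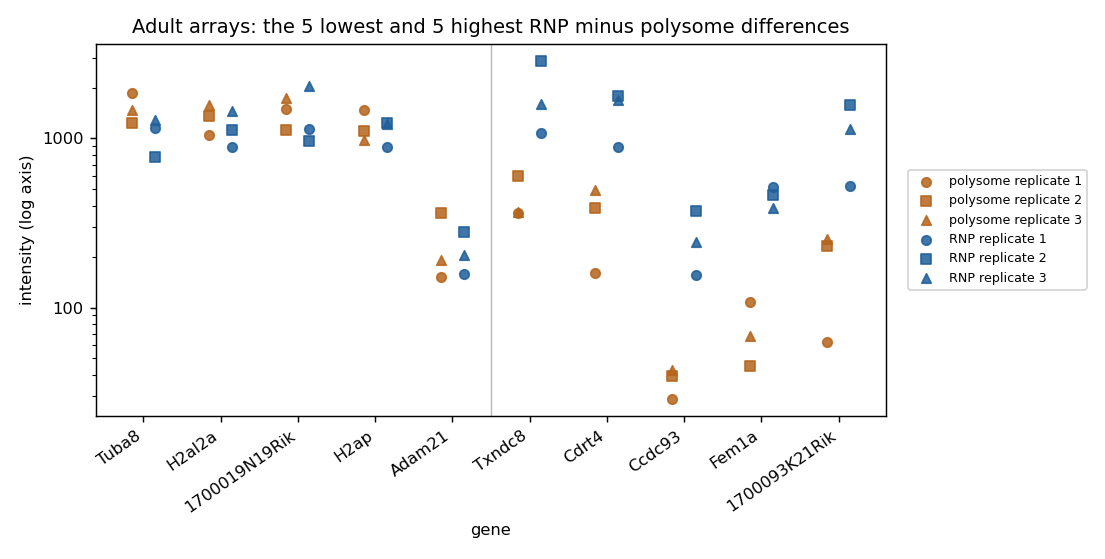
Intensity on a log axis of the 5 probe sets with the lowest (left) and the 5 with the highest (right) adult RNP minus polysome difference, on each adult array (brown, polysomes; blue, RNPs; circles, squares and triangles are replicates 1, 2 and 3). The fractions overlap in all 5 on the left and in none on the right, where 1700093K21Rik reads 524 to 1579 in RNPs and 62.5 to 255 on polysomes.

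From 22 days to adult both fractions held more of nearly all of these transcripts, which the choice of genes with low early values favours. The adult mean was above the 22-day mean for 101 of the 105 in RNPs and 102 on polysomes, with median folds of 3.30 and 5.76. Over all 14066 tested the counts were 5755 and 5866. All 3 adult arrays lay above all 3 arrays of 22 days for 79 in RNPs (12% of all tested) and for 90 on polysomes (10.3%). The fold was the larger on polysomes for 91 of the 105, against 8137 of all 14066 tested. This is the same as a lower ratio of RNP to polysome means in adults, and the median ratio went from 3.73 to 2.17. The rule asked for a high ratio at 22 days, so a lower one later is what the choice alone would give. Nothing is therefore read from the ratio, from the count of 91 or from the gap between the median folds. In 76 of the 105 the adult polysome mean exceeded the 22-day RNP mean, which also held for 8050 of all 14066 tested.

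Tssk6 had the largest fold in RNPs, from 223, 21.9 and 133 at 22 days to a mean of 4609 in adults (36.6-fold), and 32.3-fold on polysomes. Its ratio of RNP to polysome was 2.13 at 22 days and 2.42 in adults. On polysomes the largest folds were those of Cdrt4 (83.5), the uncharacterised 1700001C19Rik (72.0), H2al2a (47.5) and Cby2 (43.5). Their 22-day polysome means were 4.17 to 41.0, so these folds rest on low values. St6galnac2 went from means of 536 in RNPs and 80.1 on polysomes at 22 days to 2262 and 2245. P2rx5, a purinergic channel, went the other way, from 239.9, 36.6 and 113 in RNPs to 9.60, 20.7 and 91.1, and its mean on polysomes went from 27.97 to 11.8. Pacsin1, Pdzph1 and Fhl4 also had a lower RNP mean in adults than at 22 days (78.7, 129 and 92.8 against 115, 146 and 117).

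**Figure D5:**
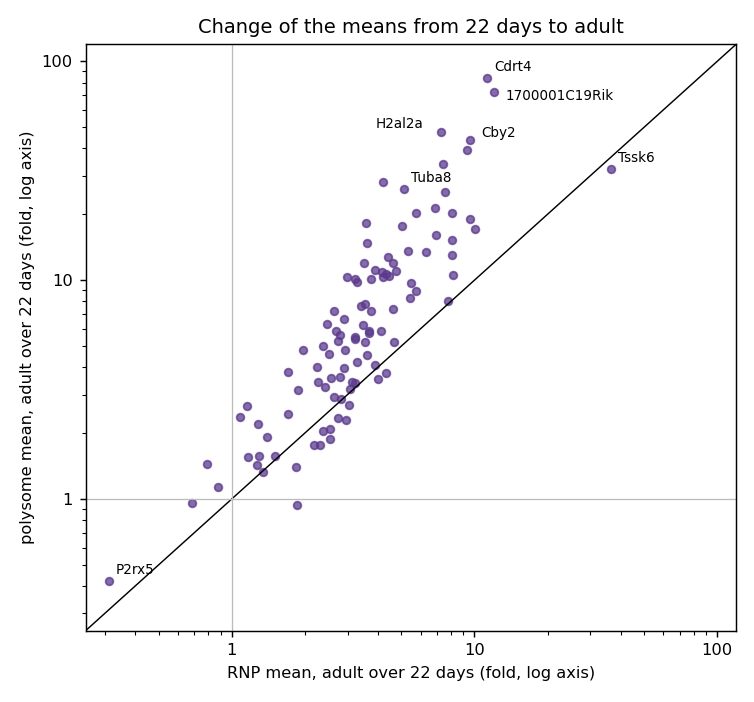
Adult mean divided by 22-day mean in RNPs (horizontal) and on polysomes (vertical) for the 105 probe sets, both on log axes; the diagonal marks equal folds and grey lines mark no change. Most points lie above the diagonal, which the choice of a high 22-day ratio favours. Tssk6 (36.6 and 32.3) lies below it, and P2rx5 (0.312 and 0.423) is the lowest on both axes.

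Other genes of the same pathways were counted in the same way. For comparison, of the 7767 tested probe sets with an adult mean of at least 100, 1477 were higher in RNPs and 1921 on polysomes. In the late spermatid and sperm structure list, 9 of 42 tested genes were higher in adult RNPs and 1 on polysomes; without the genes followed here and those left out by name it was 7 and 1 of 26. The largest differences among these others were Dnah8, a dynein heavy chain, at -1.79, and Adam5, Adam3, Meig1 and Crisp2 at 1.71, 1.63, 1.49 and 1.44. Of the haploid isozyme list 10 of 34 were higher in RNPs and 0 on polysomes (15 and 0 with median centring, 6 and 3 with quantile normalization). The spermatid ubiquitin list had 4 and 2 of 13 (5 and 0, then 2 and 2). The spermatid transcription list had 5 and 3 of 20 (9 and 1, then 6 and 2). Genes of RNA storage and translation itself, of which none is among the 103, were more often higher on polysomes. Of 39 tested, 23 were higher there and 7 in RNPs (15 and 9 with median centring, 21 and 3 with quantile normalization). The meiosis list had 11 of 22 on polysomes and 2 in RNPs. Spermatogonial genes had 7 of 14 on polysomes and 1 in RNPs, and blood, vessel and macrophage genes 1 of 10 on each side. No difference between a list and the 105, or between a list and all tested probe sets, was tested.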

How the data were processed

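The deposited table holds 1 intensity per probe set and array, made by the authors with MAS5, per the submitters' processing notes; version, settings and genome build are not given. Depth does not apply to arrays: the number of arrays limits the precision. The label gives only a biological replicate number, so the spread behind the p-values may be partly technical.

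Values were analysed as log2(intensity + 15), and fold changes on that scale understate those of low genes. A probe set was tested if 3 of 18 arrays lay above 51.6, the median of all values, which left 14066, all 105 followed here among them. All arrays entered 1 limma model (limma 3.58.1, R 4.3.3; 6 groups, lmFit and eBayes with a variance trend, 12 residual and 6.51 prior degrees of freedom). Two-sided p-values were adjusted after Benjamini and Hochberg over all tested probe sets, with a threshold of 0.05, and the fit was tested on simulated data. Same-numbered arrays of the 2 fractions deviated together in all 9 pairs (r 0.197 to 0.585). Arrays of unlike number within an age had r from -0.459 to 0.345, so the 2 ranges overlap. A second fit with the same-numbered pairs as a block, which leaves 6 residual degrees of freedom, is printed where it changes a call.

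Names came from the platform annotation: 691 probe sets name several genes and 1606 none. Genes named with values are the 10 highest at 22 days, the extremes and largest calls in adults, those nearest a limit and those in a gene list; others were named after their values were seen. Roles were assigned by hand. The members and lists were chosen with earlier results of these data known. Planned protein features were not analysed here. Alternatives were the pseudocount, filter, scaling, block, adult arrays alone, no variance trend, other limits of the rule, and each array left out.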

Additional observations from a re-analysis of the deposited data

How the results depend on the processing

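Of all tested probe sets, median centring gave 2989 higher in RNPs and 2647 on polysomes and quantile normalization 2429 and 2831, against 1772 and 3642 on the authors' scale; the median difference over all tested was 0.08, 0.02 and -0.17. The replicate block gave 2668 and 4830, and the adult arrays alone 830 and 2119, with fewer degrees of freedom. Of the 105, the count in RNPs was 79 with the replicate block, 34 with a pseudocount of 1, 61 with median centring and 36 to 55 with 1 array left out; it was 0 on polysomes in every alternative run. The median of the 105 was 1.29 with median centring and 0.84 to 1.24 with 1 array left out. Of the 50 calls, 28 held under all 16 alternatives and 31 in all 6 omissions of 1 array. The late spermatid list had 14 genes in RNPs with median centring and 20 with the replicate block, against 9. On polysomes it had 2 with no filter on low values, 4 with quantile normalization, 6 with the replicate block, 2 without both arrays of adult replicate 1 (an alternative chosen after seeing the data) and 1 to 3 with 1 array left out, against 1; the cause was not tested. The rule chose 76 to 132 probe sets under its other limits, scalings and omissions.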
